A study of Bos taurus with 81 samples.

Results

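The regions described here are the 779 stretches of the bovine autosomes that carried H3K9me3 in every H3K9me3 library of the study, from the oocyte to the separated blastocyst lineages. The 29 autosomes were divided into 5 kb bins, and a bin counted as marked in a library where at least 50% of it lay under listed peaks. Members were the bins marked in all 18 H3K9me3 peak lists, out of 497623 autosomal bins. They made up 0.157% of the autosomes, or 3.90 Mb, and 0.704% of the bins marked in at least 1 H3K9me3 list. The members were chosen by their H3K9me3 cover, so its own values in them are given as a description, and tests were made on the other assays.

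H3K9me3 is the histone mark of constitutive heterochromatin, laid down over satellite and transposon-derived repeats and over some silenced genes. H3K27me3 is the mark of Polycomb repression, which covers silent developmental genes, and in somatic cells the pair usually occupies different domains. H3K4me3 marks promoters, H3K27ac marks active promoters and enhancers, and ATAC-seq reads open chromatin. In cattle the main wave of embryonic transcription begins around the 8-cell stage, and in mammals much of the oocyte's repressive chromatin is rebuilt during cleavage.

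The study profiled bovine germinal vesicle oocytes (GV) and embryos produced in vitro with CUT&Tag for these 4 histone marks. Embryos were taken at the 2-cell (2C, 32 h after insemination), 4-cell (4C, 44 h), 8-cell (8C, 56 h), morula (MO, 122 h) and blastocyst (BL, 172 h) stages, with inner cell mass (ICM) isolated by immunosurgery and trophectoderm (TE) cut off with a microscalpel. One further group (8A) was of 8-cell embryos grown with 50 μg/ml α-amanitin, an inhibitor of RNA polymerase II, and collected at 56 h. For every mark, each of these 9 groups has 2 libraries. ATAC-seq was done on BL, ICM and TE with 3 libraries per group, which brings the total to 81. A library pooled about 500 oocytes or 1000 to 1500 blastomeres, so a value is an average over many embryos. The labels name no transgene or knockout. Nothing in the labels says that replicates came from separate cultures. The p-values of tests over stages or lineages therefore measure the spread between these libraries, which may be technical. Tests of members against other sets of bins use the mean of each untreated group. Their p-values measure the spread between those 8 groups, which are stages and lineages and not replicates, with BL, ICM and TE all from the blastocyst. Separation of ICM from TE was not checked here against marker genes, since the peak lists name no genes.

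The depth behind the peak lists is unknown, because they hold no read counts. Listed length varied widely between libraries of a mark, from 37.7 to 176 Mb of autosome for H3K4me3 and from 110 to 281 Mb for H3K27me3. Replicate libraries shared 28.8% to 81.2% of the bins marked in either. For this reason the cover of the members is set beside the cover of all other autosomal bins in the same library.

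Few bins were marked by H3K9me3 in every list. Replicate H3K9me3 libraries shared 53.9% (ICM) to 70.0% (8A) of the bins marked in either. A bin can therefore miss the rule through replicates of a group as well as through change between stages. Of all autosomal bins, 77.7% were marked in no H3K9me3 list, and 10046 were marked in exactly 10. A set of 8560 bins was marked in all 10 lists of GV, 2C, 4C, 8C and 8A and in none of the 8 lists of MO, BL, ICM and TE, and is called erased here. The reverse set of 1536 bins, marked in all 8 late lists and none of the 10 early ones, is called acquired. Both sets serve as comparison for the members.

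**Figure D1:**
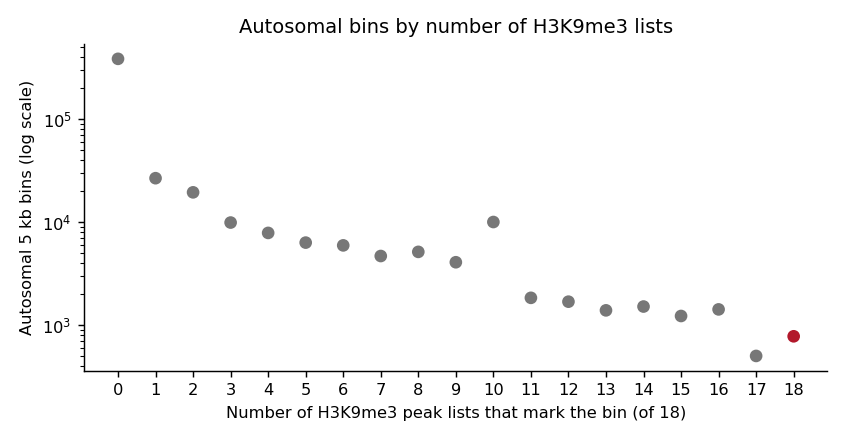
Number of autosomal 5 kb bins (log scale) by how many of the 18 H3K9me3 lists mark them. The point at 18 (red) is the 779 members, and the points at 10 and 17 stand for 10046 and 502 bins.

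H3K9me3 lay over nearly the whole length of the members. Mean cover per group ran from 92.6% ± 0.657 (SD, n = 2) at 2C to 97.1% ± 0.301 (SD, n = 2) at 8C, and 202 members were covered from end to end in every list. At the edge of the rule, the lowest cover of any member in any list was 52%, and 187 members had a lowest cover of at most 60%. Just outside it, 502 bins were marked in 17 lists. Of these, 303 had no peak base in the missing list and 95 had at least 40%. The missing list was most often 1 of the ICM libraries (122 and 57 bins) or the first MO library (82 bins).

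The members formed 424 runs of adjoining bins, most of them short. A single bin made up 238 runs (56.1%), 126 runs had 2 bins, and 60 runs had at least 3 and held 289 members. The runs sat inside wider H3K9me3 peaks. The median length of a peak that held a member was 15.6 kb at 2C and 28.1 kb in TE. For all peaks of those groups it was 6.30 and 7.60 kb. The cover rule favours bins under long peaks, so this contrast follows at least in part from the choice of members. Peaks holding other marked bins were not compared, so the lengths are given as a description only. Bins directly beside a run were marked in a median of 14 of the 18 lists, and 3.85% of them were marked in none.

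The longest run spanned 60 kb on chromosome 6, from 113780001 to 113840000 in build ARS-UCD1.2, in the coordinates of the peak lists, and lay 3.97 Mb from the last listed base of that chromosome. A 35 kb run from 113740001 to 113775000 lay just before it. Chromosome 4 held the second longest run, 50 kb from 118755001 to 118805000, and a 40 kb run from 117920001 to 117960000. A 45 kb run lay on chromosome 8 from 112250001 to 112295000. Runs of 35 kb lay on chromosome 2 from 132950001 to 132985000, on chromosome 7 from 2720001 to 2755000, on chromosome 21 from 65910001 to 65945000 and on chromosome 29 from 49025001 to 49060000. These 9 runs were the only ones over 30 kb, and 8 of them lay within 5 Mb of the chromosome end. Another 8 runs tied at 30 kb, 4 of them within 5 Mb of the end. The first of these in genome order, on chromosome 1 from 450001 to 480000, is taken as the last of the 10 named runs. Genes and repeats in these runs were not analysed here, since no annotation of this build was at hand.

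Runs also gathered into clusters. Joining runs less than 100 kb apart gave 258 clusters, of which 16 held at least 10 members each and together 29.5% of all members. The largest spanned 525 kb at the end of chromosome 4, from 118755001 to 119280000, with 18 runs and 44 members. H3K9me3 covered 77.8% of the whole span, members included, on average over the 18 libraries. The bins between its members were, by the rule, not marked in every list.

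Members lay mostly toward the ends of the chromosomes. The bovine autosomes are acrocentric, with the centromere near one end. The last 10 Mb of the chromosomes held 474 members (60.8%) and 11.7% of the bins. Of the bins marked in any H3K9me3 list 28.5% lay there, of the erased bins 33.1% and of the acquired bins 69.1%. The first 0.5 Mb held 58 members (7.45%) on 15 chromosomes, and 0.583% of the bins. Erased bins were at 0.572% and acquired bins at 2.41% in that window. Only 142 members (18.2%) lay more than 10 Mb from both ends, where 76.7% of the bins are. Placement is a property of the H3K9me3 calls themselves, so no test is given.

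Every autosome held members, though unevenly. Chromosome 4 had the highest share, 92 members or 0.384% of its bins, and 58 of them lay in its last 2 Mb. Chromosome 24 had the lowest, 3 members or 0.0241%. Chromosome 27 went the other way from chromosome 4, with 16 of its 18 members in the first 2 Mb and none in the last 2 Mb.

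**Figure D2:**
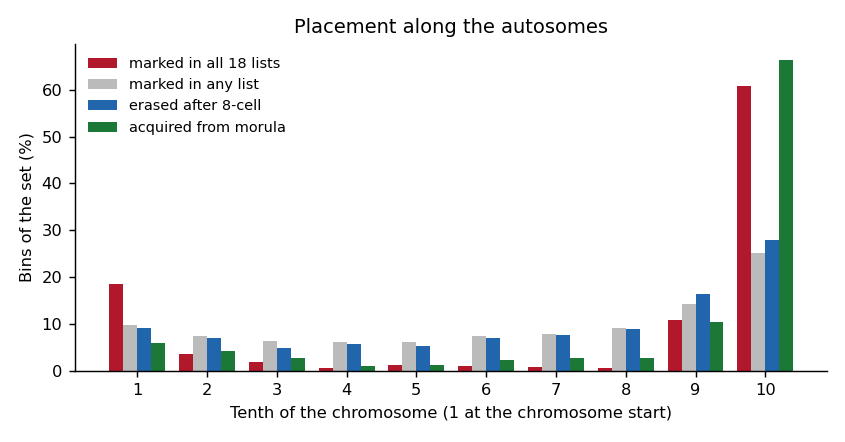
Share of each set of bins (%) by position, each chromosome cut into 10 equal parts from its start. The last of the 10 parts held 60.8% of the members and 66.5% of the acquired bins, against 25.2% of the bins in any list and 28.0% of the erased bins. The first of them held 18.6% of the members and 5.92% of the acquired bins.

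H3K27me3 was the other mark of these regions, and its cover differed between stages. The rule held H3K9me3 cover high at every stage, so the courses of these marks are not compared. Members carried H3K27me3 over 38.2% ± 3.23 (SD, n = 2) of their length in GV oocytes, over nearly all of it at 4C and 8C, and over 47.1% to 62.9% of it on average in MO, BL, ICM and TE. The libraries gave 35.9% and 40.5% in GV, 74.9% and 82.7% at 2C, 93.2% and 92.7% at 4C, and 94.0% and 94.8% at 8C. They then gave 65.0% and 60.8% in morulae, 63.0% and 57.6% in blastocysts, 45.5% and 48.8% in ICM, and 54.3% and 56.8% in TE. GV was below every other group, 2C lay between GV and 4C with no overlap, and all 8 late libraries were below all early embryo libraries. MO and BL overlapped each other.

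The spread over the 8 untreated groups exceeded that between replicates. An exact permutation test over the 2027025 ways of pairing the 16 libraries gave p = 4.93e-06, or 1.73e-05 adjusted over 7 such tests. Dividing by the cover of all other bins in the same library left the difference in place (exact permutation p = 1.09e-05, adjusted 2.53e-05). Other autosomal bins were covered over 4.31% to 11.2% in any library, and the ratio of members to others rose from 3.78 and 4.26 in the GV libraries to 17.5 and 17.3 at 8C. With 2 libraries against 2, no pair of groups can reach a two-sided exact p below 0.333, so single steps are given as values.

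Averaged over the 8 untreated groups, cover in members exceeded that in other bins by 3.07 ± 0.90 on the log2 scale (SD over groups), or 8.40-fold, and was higher in 8 of 8 groups. The exact sign-flip permutation test over the groups gave its smallest possible p of 0.00781, adjusted 0.0352 over 9 contrasts. Within the last 10 Mb, where other bins carried more H3K27me3, the difference was 1.51 (exact sign-flip permutation, adjusted p = 0.0141). Members also exceeded the erased bins, by 2.31 ± 2.10 on the log2 scale (SD over groups), in 8 of 8 groups (exact sign-flip permutation, adjusted p = 0.0352). The size of this excess differed widely, with 38.2% against 9.19% in GV, 93.0% against 89.3% at 4C and 62.9% against 1.09% in MO. Against the acquired bins they were higher in 3 of 8 groups and the difference missed the threshold (log2 difference 1.34, exact sign-flip permutation, adjusted p = 0.562).

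The H3K27me3 of the erased and acquired bins differed from the members in course as well as in level. In erased bins it stood at 9.19% in GV, 89.3% at 4C and 1.09% in morulae. In acquired bins it stood at 65.9% in GV, between 3.15% and 4.56% at 2C, 4C and 8C, and at 84.7% in morulae. At GV the members lay between the other sets, at 2C to 8C they were above the erased bins, and from the morula on they were below the acquired bins.

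**Figure D3:**
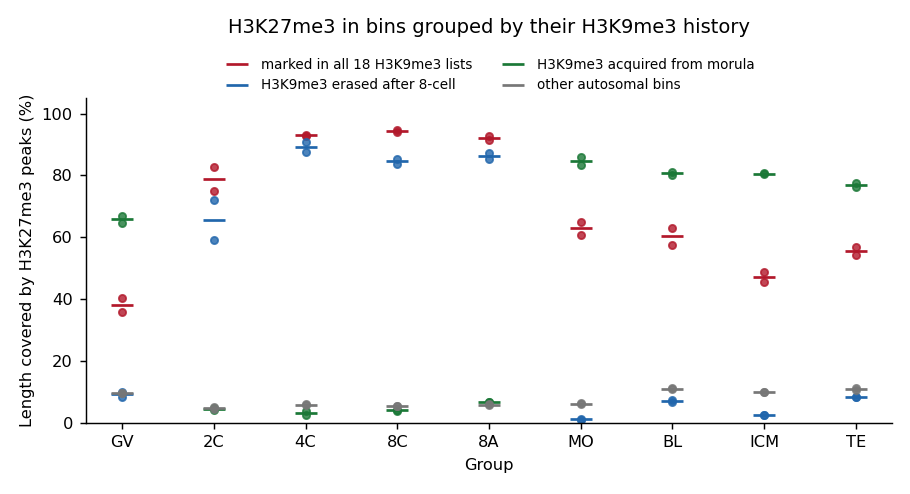
Length covered by H3K27me3 peaks (%) in each library (points) and group mean (bar), for members, erased, acquired and all other autosomal bins. Members rise from 38.2% in GV to 94.4% at 8C and stand between 47.1% and 62.9% in MO, BL, ICM and TE, while other bins stay at or below 11.2% in every library.

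High H3K27me3 at cleavage was shared with other H3K9me3 bins, as a comparison within each stage shows. Bins marked by H3K9me3 in both libraries of a group that are not members were covered by H3K27me3 over 8.50% in GV, 73.7% at 8C and 77.1% in BL. Members in the same groups stood at 38.2%, 94.4% and 60.3%. Members were therefore above the stage's other H3K9me3 bins in GV and at 2C, 4C, 8C and MO, and below them in BL, ICM and TE. These are descriptive values, since H3K9me3 in the same libraries set both groups of bins.

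Counts of bins give the same order. In both GV libraries 266 members (34.1%) were marked by H3K27me3, against 7.58% of all autosomal bins. At 2C it was 607 members (77.9%, background 3.52%), at 4C 746 (95.8%, background 4.76%) and at 8C 753 (96.7%, background 4.52%). In morulae 471 members (60.5%) were marked in both libraries, against 5.41% of all bins. The count was 439 (56.4%) in BL, where the background was 10%. ICM had 339 (43.5%, background 8.89%) and TE had 416 (53.4%, background 9.95%). No member lacked H3K27me3 in all 18 lists, whereas 73.1% of autosomal bins did. The fewest lists marking a member was 3 and the median was 14.

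Many members gained H3K27me3 between the oocyte and the 2-cell embryo. Marked in no GV library and in both 2C libraries were 266 members (34.1%, background 1.73%). As a share of the bins that could make this move, they were 63.9% of the 416 members marked in no GV library, against 1.97% of all such autosomal bins. The reverse held for 3 members (0.385%, background 5.42%). Of the members marked in both GV libraries these were 1.13%, against 71.5% of all bins so marked. A further 50 members went from no 2C library to both 4C libraries (6.42%, background 1.06%), and none went the other way (background 0.515%).

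Between the 8-cell embryo and the morula, 194 members lost the mark, being marked in both 8C libraries and in no MO library (24.9%, background 3.13%). Nearly all members could lose it (96.7% were marked in both 8C libraries), against 4.52% of all autosomal bins. Of the bins marked in both 8C libraries, 25.8% of the 753 members lost the mark, against 69.4% of all 22469 such bins. None went from no 8C library to both MO libraries (background 3.84%), but 5 members alone could. Of the 194, 65 (33.5%) were marked again in both BL libraries, as were 16.1% of all autosomal bins with that loss. From MO to BL, 108 members lost the mark (13.9%, background 0.625%) and 66 gained it (8.47%, background 4.39%). Of the bins marked in both MO libraries, that loss was 22.9% in members and 11.5% in all bins. Of the bins marked in neither, the gain was 32.8% and 4.74%. These shares are given without a test.

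The members can be divided by their H3K27me3 in the oocyte. Of the 266 marked in both GV libraries, 208 (78.2%) were marked in both MO libraries, 204 (76.7%) in BL and 169 (63.5%) in ICM. Over all autosomal bins marked in both GV libraries the shares were 41.3%, 55.9% and 52.0%. Of the 416 members marked in no GV library, the figures were 201 (48.3%), 177 (42.5%) and 126 (30.3%), and over all such bins 1.96%, 5.37% and 4.55%. The order of the GV states was thus the same in all bins as in members. H3K27me3 was present in every list in 126 members (16.2%, background 0.379%), and these made up 6.69% of the 1884 autosomal bins with that property. The opposite course, marked in all 2C, 4C and 8C libraries and in none of MO, BL, ICM or TE, was taken by 54 members (6.93%, background 1.13%).

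Few members differed in H3K27me3 between α-amanitin-treated and untreated 8-cell embryos. In both 8A libraries 748 members (96.0%, background 4.94%) were marked. The 8A libraries gave 91.6% and 92.6% of member length under H3K27me3, against 94.0% and 94.8% at 8C, without overlap. Lost in 8A in the sense above were 6 members (0.770%, background 0.402%) and gained were 3 (0.385%, background 0.662%). Of the bins marked in both 8C libraries, the loss was 0.797% in members and 8.89% in all bins, given without a test. Only 5 members were marked in no 8C library and could gain the mark.

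H3K27me3 on members was lower in both ICM libraries than in both TE libraries (45.5% and 48.8% against 54.3% and 56.8%). Other bins were also lower in ICM (9.82% and 9.83%) than in TE (10.7% and 11.1%). The ratios of members to others were therefore closer, at 4.63 and 4.96 in ICM and 5.07 and 5.12 in TE. Marked in both TE libraries and no ICM library were 61 members (7.83%, background 1.94%), which were 17.1% of the members marked in no ICM library, against 2.19% of all such bins. Marked the other way round were 21 (2.70%, background 1.16%), which were 6.19% of the members marked in both ICM libraries, against 13.0% of all such bins. Single runs differed more. In the 60 kb run on chromosome 6, H3K27me3 covered 45.3% and 22.7% in GV, 100% in both 8C libraries, 2.67% and 0% in ICM, and 40.7% and 40.3% in TE. The neighbouring 35 kb run on chromosome 6 and the run on chromosome 7 were likewise at 0% in ICM on average, and at 73.1% and 61.1% in TE. The runs of 50 and 45 kb on chromosomes 4 and 8 were also lower in ICM (45.0% and 45.6%) than in TE (73.6% and 71.8%). Runs that went the other way were those of 35 kb on chromosome 2 (91.7% in ICM and 42.0% in TE) and on chromosome 21 (71.1% and 22.6%), and of 40 kb on chromosome 4 (52.5% and 37.2%). The runs on chromosomes 29 (59.7% and 61.7%) and 1 (95.3% in each) were close between the lineages.

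H3K27me3 in members differed by position in the morula more than at earlier stages. In morulae it covered 70.5% ± 3.38 (SD, n = 2) of members in the last 10 Mb, 44.3% ± 0.0868 (SD, n = 2) in the first 10 Mb and 58.8% ± 5.06 (SD, n = 2) elsewhere. Other bins of these zones stood at 26.1%, 4.97% and 3.38%. In GV the members of the 3 zones stood at 37.1%, 40.1% and 39.6%, and at 4C at 93.3%, 91.9% and 93.2%. In BL they stood at 61.8%, 51.9% and 65.1%, in ICM at 50.7%, 34.6% and 49.4%, and in TE at 57.4%, 44.8% and 61.8%. Members of the first 10 Mb were thus the lowest of the 3 zones from the morula on, while the last 10 Mb stood highest in morulae and ICM but not in BL and TE. These differences between zones were not tested.

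Members in longer runs carried more H3K27me3 in most groups. Members standing alone, in runs of 2 and in runs of at least 3 were covered over 29.3%, 41.2% and 43.0% in GV, over 55.5%, 62.9% and 68.9% in morulae and over 53.6%, 54.5% and 58.1% in TE. In ICM the values were 47.0%, 43.7% and 50.2%, which do not follow run length.

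Around the runs, H3K27me3 at 4C was at 90.8% in the edge bin of a run and at 39.9% at a distance of 25 kb. In TE it was at 54.8% and 44.5%. H3K4me3 in GV was lowest at the run, with 6.24% in the edge bin, 13.6% at 25 kb and 16.2% at 50 kb. Other autosomal bins stood at 6.37% in GV, near the value of the edge bin. At 2C the edge bin was also the lowest (6.79%, and 7.30% at 5 kb). In every group from 4C on the edge bin was above the bin at 5 kb, with 7.65% against 7.55% at 4C and 1.60% against 0.850% in TE.

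**Figure D4:**
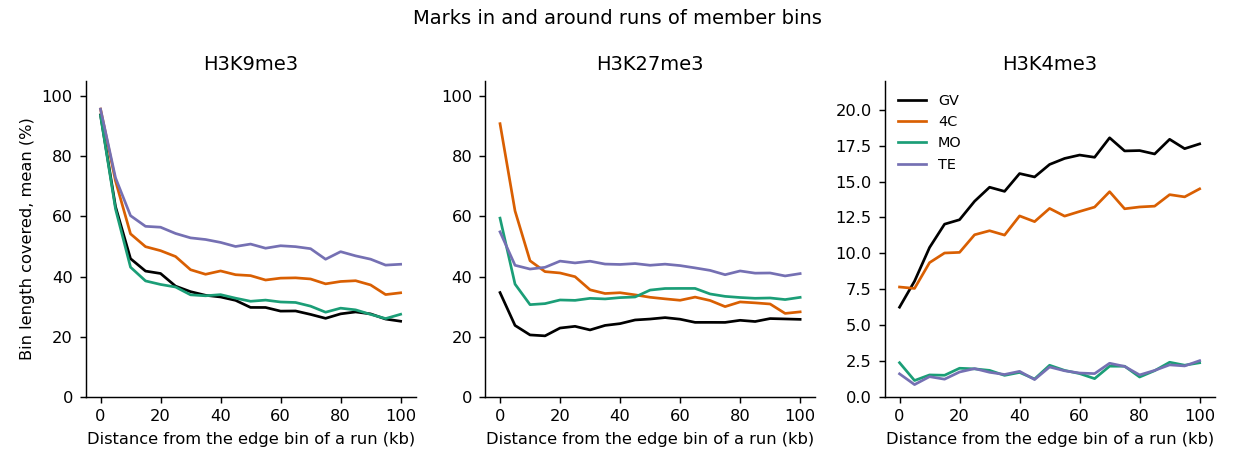
Mean cover (%) of H3K9me3, H3K27me3 and H3K4me3 in the edge bin of a run (0 kb) and in bins up to 100 kb outside it, averaged over the libraries of GV, 4C, MO and TE. The H3K4me3 axis has its own scale. H3K27me3 at 4C falls from 90.8% to 39.9% over 25 kb, and H3K4me3 in GV rises from 6.24% to 13.6%.

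The active marks were sparse on the members, and over the whole autosomes their mean difference from other bins missed the threshold. H3K4me3 covered 6.33% ± 1.21 (SD, n = 2) of member length in GV, 6.96% ± 0.83 at 4C, 6.63% ± 1.89 at 8C, 2.05% ± 0.0118 in MO and 1.29% ± 0.0508 in BL. The libraries of 8C were wide apart, at 5.29% and 7.97%. All libraries from GV to 8C, the α-amanitin group included, were above all libraries from MO on. The difference over the 8 untreated groups exceeded that between replicates (exact permutation p = 0.000700, adjusted 0.000816).

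H3K4me3 was lower from MO on in other bins as well, but the ratio of members to others was not constant. It was 0.990 in GV, 1.37 at 2C, 1.69 at 4C and 1.84 at 8C, then 1.12 in MO, 0.666 in BL, 0.866 in ICM and 0.695 in TE. The test of this ratio over the stages gave the smallest p that permutations allow (exact permutation p = 4.93e-07, adjusted 3.45e-06). Averaged over the groups, the log2 difference was 0.11 ± 0.55 (SD over groups), with members higher in 4 of 8 groups (exact sign-flip permutation, adjusted p = 0.695). H3K4me3 in members was below that in acquired bins by a mean log2 difference of -1.21, which missed the threshold (exact sign-flip permutation, adjusted p = 0.164).

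That average joined places that differ in direction. In the last 10 Mb, H3K4me3 covered 4.26% of members and 16.2% of other bins in GV, and 0.747% and 3.48% in BL. Members there were lower in 8 of 8 groups, by a mean log2 difference of -1.79 (exact sign-flip permutation, adjusted p = 0.0141). With the last 10 Mb left out, members were higher by 1.05 (exact sign-flip permutation, adjusted p = 0.0234). Without the 12 members marked in every ATAC list this second value was -0.30 (exact sign-flip permutation, adjusted p = 0.677). Bins marked in every ATAC list were taken out of the members alone and stayed among the other bins. That lowers the difference by construction, so the value cannot show that the excess rested on those 12 members. These splits were chosen after the data were seen. In the first 10 Mb the GV values were 13.5% for members and 5.93% for other bins.

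Few members were marked by H3K4me3, and fewer from the morula on than before. Both GV libraries marked 27 members (3.47%, background 2.6%), both 2C libraries 28 (3.59%, background 1.95%), and the 4C and 8C libraries 31 each (3.98%, background 1.63% and 1.36%). In 8A it was 22 (2.82%, background 0.726%). Both MO libraries marked 13 (1.67%, background 0.872%), both BL libraries 6 (0.770%, background 1.1%), both ICM libraries 9 (1.16%, background 0.804%) and both TE libraries 5 (0.642%, background 1.01%). From 8C to MO 18 members lost the mark (2.31%, background 0.856%) and none gained it (background 0.291%). Of the bins marked in both 8C libraries, this loss was 58.1% in the 31 members and 63.1% in all bins. The 6 BL members were all among those marked at 2C, 4C, 8C, 8A, MO and ICM. All 18 H3K4me3 lists marked 4 members (0.513%, background 0.0547%), and no H3K4me3 list marked 703 members (90.2%, background 93.2%). Members marked by H3K4me3 in GV also carried H3K27me3 over 96.0% of their length there, against 36.1% in the remaining members. The same value was not taken over all autosomal bins marked by H3K4me3 in GV. The overlap is thus not shown to be particular to members.

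H3K27ac covered 1.57% to 4.22% of member length in any library. The ratio of members to others was 0.581 in GV, 1.59 at 2C, 1.69 at 4C, 0.844 at 8C, 0.648 in MO, 0.807 in BL, 0.600 in ICM and 0.816 in TE. By length covered, members were thus above other bins at 2C and 4C and below them in the other 6 untreated groups. This ratio differed over the stages by more than between replicates (exact permutation p = 8.04e-05, adjusted 0.000113). In counts of bins, both 2C libraries marked 17 members (2.18%, background 0.315%) and both 4C libraries 15 (1.93%, background 0.0858%). Both GV libraries marked 18 (2.31%, background 2.6%), both 8C libraries 17 (2.18%, background 1.4%), both BL libraries 10 (1.28%, background 0.935%) and both ICM libraries 12 (1.54%, background 2.3%). The mean log2 difference was -0.20 ± 0.60 (SD over groups) and missed the threshold (exact sign-flip permutation, adjusted p = 0.680). In the last 10 Mb it was -1.71, with members lower in 8 of 8 groups (exact sign-flip permutation, adjusted p = 0.0141), and with the last 10 Mb left out it was 0.59 (exact sign-flip permutation, adjusted p = 0.141). Taken over the percent of bins marked in place of length, the difference was 0.68 (exact sign-flip permutation, adjusted p = 0.422).

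ATAC cover of the members, 4.08% ± 0.790 (SD, n = 3) in BL, 3.18% ± 0.354 in ICM and 3.31% ± 0.353 in TE, gave a test over the lineages that missed the threshold (exact permutation p = 0.143). Of 41 alternatives run, 39 also missed the threshold (exact permutation p up to 0.639) and 2 passed it. Without the first BL library p was 0.0357 by the same exact test. The other of these 2, a replicate block, is given in the last section. Other bins stood at 4.03%, 3.47% and 3.53%. No ATAC list marked 753 members (96.7%, background 97.3%). No list of H3K4me3, H3K27ac or ATAC marked 677 members (86.9%, background 86.4%), a share near the background.

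**Figure D5:**
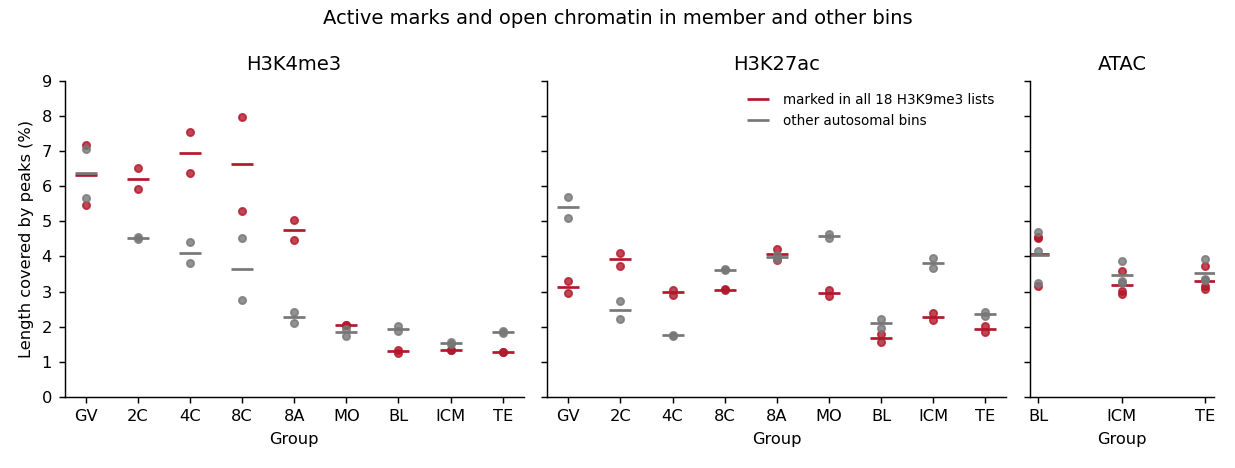
Length covered by H3K4me3, H3K27ac and ATAC peaks (%) in each library (points) and group mean (bar), for members and other autosomal bins. H3K4me3 in members stands above other bins from 2C to 8C and below them in BL, ICM and TE. H3K27ac in members stands above other bins at 2C and 4C by length covered.

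A small number of members lay under listed peaks of both active and repressive marks. Of the 5 autosomal bins that every H3K27ac list marked, 4 were members (0.513% of the members, background 0.001%). Every ATAC list marked 12 members (1.54%, background 0.333%), of which 9 lay in the first 10 Mb of a chromosome. H3K4me3 covered 55.2% of these 12 in BL and 0.449% of the remaining members. The 12 held 65.8% of all member length under H3K4me3 in BL and 14.4% in GV. H3K27ac covered 53.4% of them in BL and 68.1% in GV. Placement and active marks were not taken for all 1656 autosomal bins marked in every ATAC list. Whether these values are particular to the 12 members is therefore not shown.

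Of all autosomal bins, 3 were marked in all 81 lists (background 0.000603%), and all 3 were members: chromosome 16 from 820001 to 825000, chromosome 16 from 825001 to 830000 and chromosome 27 from 6220001 to 6225000. The bin on chromosome 27 was covered over at least 96% by every list of every assay and had the highest mean cover of H3K4me3, of H3K27ac and of ATAC among all runs. Peaks of marks that label opposite states coincide in these bins in pooled cells. How repeats and duplicates were treated, and whether a control was used, is not given. Whether these bins hold signal common to all assays for that reason was not tested.

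H3K27me3 covered 8 runs whole in all 18 lists, and these differed widely in active marks. Mean H3K4me3 cover over the 18 H3K4me3 libraries ran from 3.28% to 99.9% among them and was at most 14.0% in 5 of the 8. The longest of the 8 spanned 20 kb on chromosome 4 from 195001 to 215000. H3K4me3 covered 79.2% to 95.8% of that run in the libraries from GV to 8C, the α-amanitin group included, then 42.5% and 33.8% in MO and 0% in both BL and both TE libraries. H3K27ac covered 47.0% and 58.0% in GV, 15.8% and 9.25% at 8C, 85.0% and 78.8% in 8A, and 0% in every library from MO on. The 8A libraries were above both 8C libraries. ATAC covered at most 2% in any library. The 30 kb run on chromosome 1 from 450001 also had H3K4me3 in GV (61.3% and 80.7%) and none from MO on. Between these, its mean H3K4me3 cover was 11.0% at 2C, 15.8% at 4C, 40.8% at 8C and 0.667% in 8A. That run had H3K27ac in GV alone (44.0% and 56.7%).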

How the data were processed

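The files are 81 peak lists, 1 per library, in coordinates of build ARS-UCD1.2. Per the submitters' processing notes, the tools were Trim Galore 0.4.0 with cutadapt 1.8.3 (read trimming), the aligner BWA 0.7.9a, Picard 2.26.10 and SAMtools 1.9. These notes name SICER, and the deposited lists are named for epic2, a faster form of it. Peak cutoffs, any control library, and how duplicates and repeats were treated: not given in the sources used here. Each deposited list gives a start and an end per peak (the end is the last base) and a score whose meaning the authors' files do not state. The score was used only to shorten lists in an alternative. Peaks of H3K9me3 and H3K27me3 lie on a 200 bp grid with gaps of at least 1200 bp, and those of the other assays on a 50 bp grid with gaps of at least 100 bp, so the levels of different assays are not compared. Depth is unknown, and no counting interval can be given.

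Cover was computed per 5 kb bin in NumPy 2.4.6, with tables read by pandas 2.3.3 under Python 3.11.15. A chromosome was taken to end at the highest peak end in any list. Means are over libraries. Contrasts use the log2 of cover plus 0.01 percentage points, per group. Stage tests permute the 16 untreated libraries of a mark, or 9 ATAC libraries, over groups, and contrasts flip the signs of 8 group values. Benjamini-Hochberg adjustment covered 7 stage tests and 9 contrasts, with a threshold of 0.05. The code was tested on simulated data. Groups came from the sample labels, and 8A stayed out of the tests. The members, the comparison sets and the tests were chosen with earlier results of these data known.

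Named regions are the 10 longest runs (ties by chromosome and start), the run with the highest mean cover of each assay (ties by length), the chromosomes with the highest and lowest share of members, and bins marked in all lists. Other singled-out places (the largest cluster, chromosome 27 and the 12 members in every ATAC list) were chosen after their values were seen. Alternatives changed the bin size, the cover and the number of lists a member needs, the lists used, the measure, the pseudocount, the replicate block and the part of the chromosomes. No genome sequence of this build was used here, so no sequence is printed.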

Additional observations from a re-analysis of the deposited data

Results flagged for a closer look

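Outside the autosomes, 104 of the 27802 bins of the X chromosome (0.374%) and 609 of the 13862 bins of unplaced scaffolds (4.39%) were marked in all 18 H3K9me3 lists. On the autosomes the share was 0.157%. These bins stand apart because no comparison above used them.

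The ratio of members to other bins differed between stages for both active histone marks. For H3K4me3 the log2 ratio at 8C exceeded that in BL by 1.46, and members were above other bins in both 8C libraries and below them in both BL libraries. For H3K27ac the log2 ratio at 4C exceeded that in GV by 1.54, with both 4C libraries above and both GV libraries below. The differences over all 8 untreated stages were tested (adjusted p = 3.45e-06 for H3K4me3 and 0.000113 for H3K27ac, exact permutation tests), but these pairs of stages were not tested alone. H3K4me3 peaks covered 37.7 to 176 Mb of autosome in a library and H3K27ac peaks 43.4 to 142 Mb, and the part of this range in the ratios was not tested.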

How the results depend on the processing

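The number of members followed the rule. It was 397 with 75% of a bin covered, 1281 in at least 17 of 18 lists, 403 with lists shortened by score, 1818 in 2 kb bins and 351 in 10 kb bins, against 779, and 781 to 901 without 1 H3K9me3 list. The 6 stage tests of the histone marks and the 3 contrasts of H3K27me3 kept their side of the threshold, and those contrasts their direction, under every alternative run. The excess of H3K27me3 over other bins ranged from 1.51 (only the last 10 Mb) to 3.46 on the log2 scale.

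The contrasts of active marks did not keep their direction. For H3K4me3 against other bins the log2 difference, 0.11 as reported, was -0.14 in at least 17 lists, -0.71 without the 12 members marked in every ATAC list, 1.05 with the last 10 Mb left out, -1.79 in the last 10 Mb only, -0.30 with the last 10 Mb and those 12 members left out, and -0.0063 in 10 kb bins. Leaving out 1 library gave -0.049 (without the first H3K9me3 library of ICM) to 0.19. Against erased bins (0.52) it was -0.31 without those 12 members, -0.64 in the last 10 Mb only and -0.046 in 10 kb bins. Against acquired bins (-1.21) it passed the threshold at -1.47 in at least 17 lists, -2.04 without those 12 members, -1.81 in the last 10 Mb only, -2.08 with both left out and -1.32 in 10 kb bins.

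For H3K27ac the difference from other bins (-0.20) was 0.68 for the percent of bins marked, 0.59 with the last 10 Mb left out, -1.71 in the last 10 Mb only, 0.091 with lists shortened by score and 0.14 in 2 kb bins. Against erased bins (-0.35) it was 1.05, 0.40, 0.12 and 0.10 for the percent marked, the last 10 Mb left out, shortened lists and 2 kb bins. Against acquired bins (-0.25) it was 0.65 for the percent marked, 0.95 with shortened lists and -1.27 with the last 10 Mb and the 12 members left out. The cause was not tested. The alternatives on the last 10 Mb and on the 12 members were chosen after seeing the data. For both marks, those on the 12 members left bins marked in every ATAC list in the comparison sets. That lowers the differences by construction.

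The labels do not say that replicate numbers pair libraries. The median correlation of the deviations of same-numbered libraries lay near 0 for each histone mark (H3K27me3 -0.00073, H3K4me3 0.0054). For ATAC it ran from 0.042 to 0.12 over 3 pairs of groups, 2 of them above 0.1, so not every pair passed and the libraries were not treated as paired. A replicate block left every histone test on its side (adjusted p up to 0.00341) and gave p = 0.0278 for ATAC (exact permutation), against 0.143. Without 1 library the ATAC p ranged from 0.0357 (without the first BL library) to 0.500.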
